A study of Saccharomyces cerevisiae with 6 samples.

Results

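The 10 genes described here encode the yeast enzymes that make serine from a glycolytic intermediate, interconvert serine and glycine, make glycine from threonine and cleave glycine. They were chosen by name as SER3, SER33, SER1, SER2, SHM2, SHM1, GLY1, GCV2, GCV1 and GCV3. Each had 1 probe set, so the 10 genes are 10 of the 5449 budding yeast genes measured, and all 10 were above background on each of the 6 arrays. The cultures were Saccharomyces cerevisiae of the S288C background, mating type a, grown in aerated chemostats at 30 °C and pH 5, where the glucose supply held growth at 0.10 per hour. The wild-type group has 3 arrays, from YNB medium with 10 mM 3AT, and the gcn4Δ group has 3 arrays, from YNB medium with 0.1 mM 3AT. 3AT, aminotriazole, inhibits a histidine biosynthesis enzyme, and its dose was titrated in this study to bring cells close to histidine starvation. Because genotype and dose change at once, their parts in any difference between the groups cannot be told apart. No label tells whether replicates of a group were grown in separate vessels. The p-values therefore cover only the variation among these arrays, and that variation may be technical.

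Serine is made in 3 steps from the glycolytic intermediate 3-phosphoglycerate: oxidation by the dehydrogenases Ser3 and Ser33, transamination by Ser1 and removal of phosphate by Ser2. The hydroxymethyltransferases Shm2, in the cytosol, and Shm1, in mitochondria, move a one-carbon unit between serine and tetrahydrofolate and so convert serine and glycine into each other. The threonine aldolase Gly1 splits threonine into glycine and acetaldehyde. In mitochondria the glycine cleavage complex, built from Gcv2, Gcv1, Gcv3 and the shared subunit Lpd1, breaks glycine down and passes a one-carbon unit to tetrahydrofolate. Gcn4 is the transcription activator of amino acid biosynthesis genes under amino acid shortage, and Bas1 with Pho2 is known to activate SHM2 and the GCV genes.

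GCN4, the deleted gene, read 7312, 7309 and 7248 in wild-type replicates 1, 2 and 3, and 14.5, 213 and 11.4 in gcn4Δ replicates 1, 2 and 3. Signal was thus left on the array labelled gcn4Δ replicate 2, above the background of 17.9 to 25.2, and the values of the 10 genes are also given without it. Wild-type replicate 1 stood apart from the other wild-type arrays, with Pearson's r across genes, which are not independent replicates, of 0.968 and 0.972 to them against 0.989 between them. Between the groups r was 0.928 to 0.970, and wild-type replicate 2 reached 0.970 with gcn4Δ replicate 3, about as high as with wild-type replicate 1. Median intensity over genes lay between 664 and 712 on the arrays, whose number limits the precision. The 5 markers of mating type a were all above background on all arrays, with summed intensities of 7365 to 10766 in the wild type and 10569 to 11284 in gcn4Δ. The 4 markers of mating type α were above background too, at 30.5 to 379 each, and summed to 604 to 934 and 694 to 727. No marker of either type passed the test between the groups, none was at 0, and their part in the results was not tested.

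In gcn4Δ, transcripts of 3 of the 10 genes fell: GLY1, the threonine aldolase, SER1, the transaminase of serine synthesis, and SER3, one of its 2 dehydrogenases. The remaining 7 did not pass the test, and 0 rose. The wild type had 2.58-fold more GLY1 transcript, 1.83-fold more SER1 and 1.68-fold more SER3. Limma called a gene at a Benjamini-Hochberg adjusted p under 0.05 over all yeast probe sets, and by that rule 11.3% of all 5449 genes were called, 6.0% lower and 5.34% higher in gcn4Δ. At an unadjusted p under 0.05 in limma, 5 of the 10 genes were lower and 1 was higher, against 12.3% of all genes lower and 16.4% higher by that rule. The median log2 change of the 10 genes was -0.27, against 0.04 over all genes. RNA was taken from bulk cultures, in which fewer cells with a transcript and less of it per cell cannot be told apart.

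**Figure D1:**
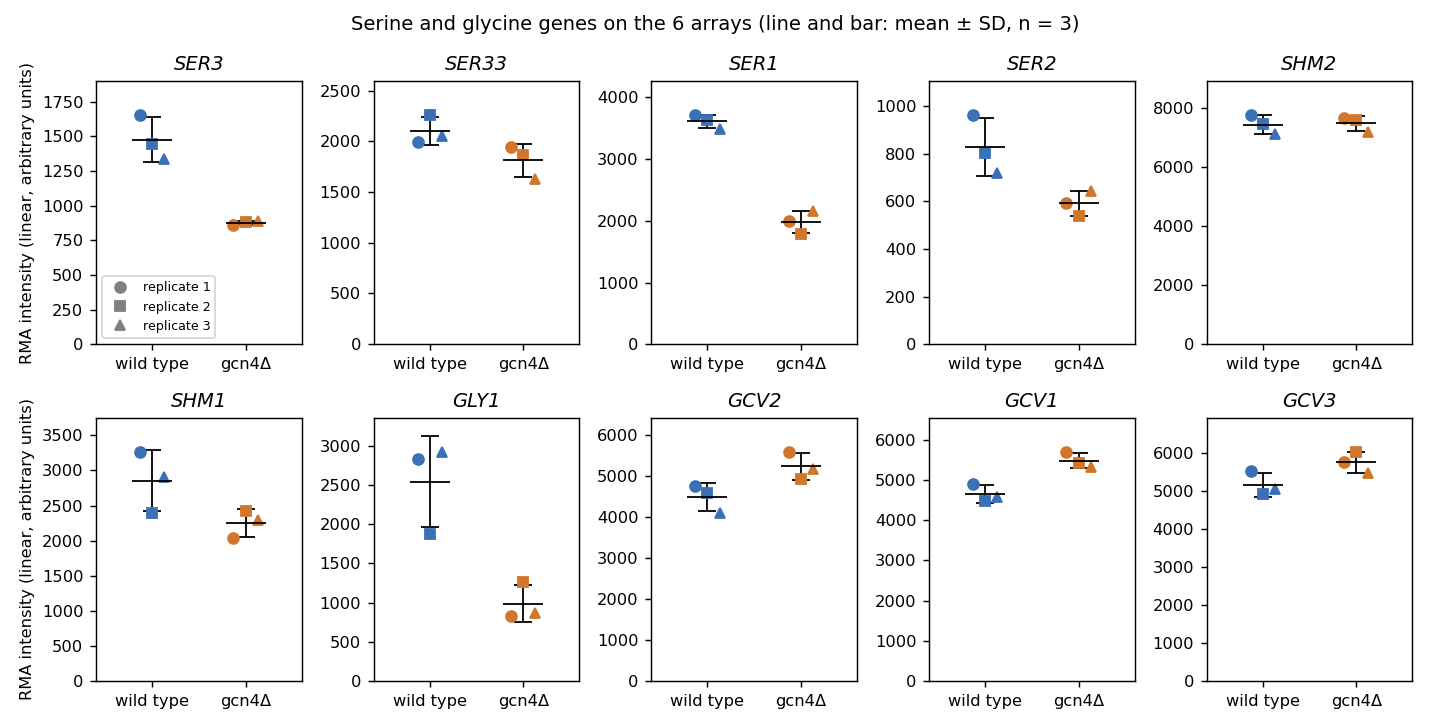
RMA intensity (linear, arbitrary units) of each of the 10 genes, with 1 point per array, shaped by replicate number, and lines and bars for the mean ± SD of 3 arrays. All gcn4Δ points of SER3, SER1 and GLY1 lie below the wild-type points, the groups of SHM2 overlap at means of 7450 and 7501, and the GCV means are slightly higher in gcn4Δ.

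At the first step of serine synthesis, SER3 read 1652, 1443 and 1336 in wild-type replicates 1, 2 and 3, and 861, 879 and 887 in gcn4Δ. All gcn4Δ arrays were below all wild-type arrays, and the 3 gcn4Δ values lay close together. The mean went from 1477 ± 161 to 876 ± 13.4 (SD, n = 3 each). On the log2 scale this was a change of -0.75 ± 0.10 (SE, limma adjusted p = 0.00543). The call held in each of the 6 fits that left out 1 array, with log2 changes of -0.82 to -0.66. With gcn4Δ replicate 2 left out it was -0.75, and with wild-type replicate 1 left out it was -0.66.

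SER33 encodes the second dehydrogenase and read 1997, 2256 and 2054 in the wild type, and 1943, 1869 and 1627 in gcn4Δ. The groups just failed to overlap, with gcn4Δ replicate 1 close under wild-type replicate 1. Its log2 change was -0.22 (95% interval -0.46 to 0.03, limma adjusted p = 0.217). Omission of 1 array gave -0.27 to -0.14, the latter without gcn4Δ replicate 3, and -0.24 without gcn4Δ replicate 2. Groups separated with gcn4Δ lower in 14.6% of all genes, so this separation is common on these arrays. Within an array, the log2 ratio of SER3 to SER33 was -0.27, -0.64 and -0.62 in the wild type and -1.17, -1.09 and -0.87 in gcn4Δ. Each gcn4Δ ratio was below each wild-type ratio. The ratio was 0.53 lower in gcn4Δ (log2, 95% interval of the difference -0.95 to -0.12), with an exact two-sided permutation p = 0.1, the smallest that 3 against 3 arrays can give, or 0.175 adjusted over the 7 pairs compared. It was 0.51 lower when gcn4Δ replicate 2 was left out. Probe sequences were not used here, so binding of one paralog's RNA to the other's probes was not tested.

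SER1, which encodes the aminotransferase of the second step, read 3710, 3637 and 3495 in the wild type, and 2001, 1790 and 2156 in gcn4Δ. The groups were far apart relative to the spread within them. SER1 fell from a mean of 3614 ± 109 to 1982 ± 183 (SD, n = 3 each). Its log2 change was -0.87 ± 0.10 (SE, limma adjusted p = 0.00239). A lower change than this was found for 2.79% of all genes. The call held in each omission of 1 array, with log2 changes from -0.93 to -0.80, of which -0.80 left out gcn4Δ replicate 2 and -0.85 left out wild-type replicate 1.

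SER2, the phosphatase of the last step, read 961, 804 and 718 in the wild type, and 591, 538 and 644 in gcn4Δ. No gcn4Δ array reached the lowest wild-type array, but the wild-type values were spread widely. The log2 change was -0.48 ± 0.13 (SE, limma adjusted p = 0.0651, 95% interval -0.79 to -0.17), which did not pass. It stayed above the threshold in each omission of 1 array, at -0.58 to -0.37, where -0.41 left out gcn4Δ replicate 2 and -0.37 left out wild-type replicate 1. Under 4 other settings SER2 did pass: renewed quantile normalization, omission of the lowest 25% of probe sets, trend and robust variances, and array weights, at adjusted p of 0.0482, 0.0497, 0.0489 and 0.0173 in limma. The log2 ratio of SER1 to SER2 within an array averaged 2.14 ± 0.17 in the wild type and 1.75 ± 0.01 in gcn4Δ (SD, n = 3 each). These ratios did not overlap, and their difference was -0.39 (95% interval -0.67 to -0.12, exact permutation p = 0.1, adjusted over pairs 0.175), with -0.39 also when gcn4Δ replicate 2 was left out.

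**Figure D2:**
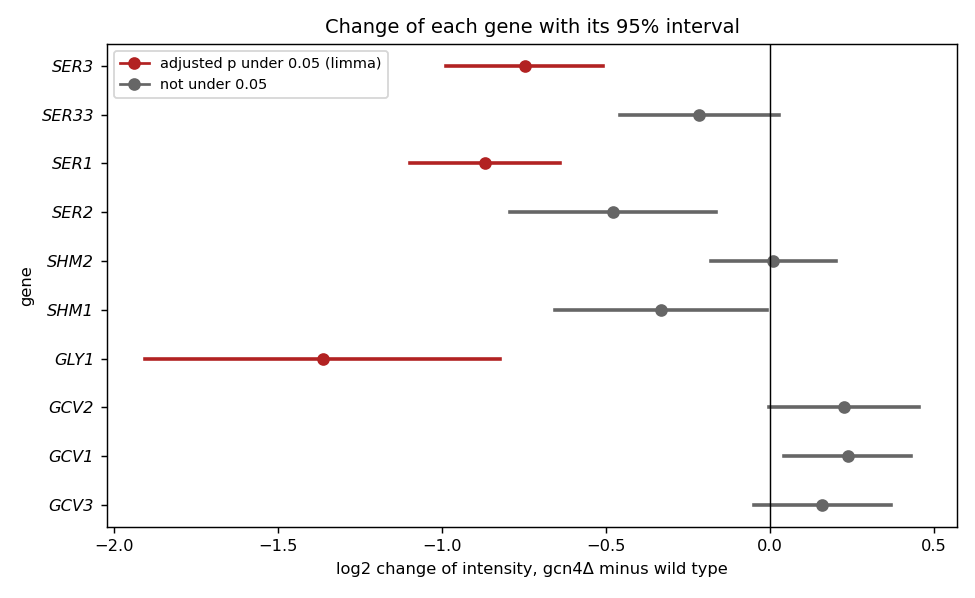
Log2 change of intensity, gcn4Δ minus wild type, for each of the 10 genes in pathway order; points are limma estimates from 3 arrays a group and lines their 95% intervals. GLY1 lies at -1.36 and SER1 at -0.87, while the estimate of SHM2 lies at 0.01 and those of the GCV genes between 0.16 and 0.24.

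Of the routes to glycine, the hydroxymethyltransferases and the aldolase gave different values. SHM2, the cytosolic enzyme, read 7764, 7458 and 7128 in the wild type, and 7686, 7610 and 7207 in gcn4Δ. The groups overlapped over nearly their whole range, and the mean was 7450 ± 318 against 7501 ± 258 (SD, n = 3 each). The log2 change was 0.01 (95% interval -0.18 to 0.20, limma adjusted p = 0.945), with a sign that depended on the setting: it was -0.027 with renewed quantile normalization and -0.00053 without gcn4Δ replicate 2. On the log2 scale its SD was 0.06 in the wild type and 0.05 in gcn4Δ, below the medians of 0.15 and 0.11 over all genes.

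SHM1, the mitochondrial enzyme, read 3263, 2392 and 2911 in the wild type, and 2041, 2426 and 2296 in gcn4Δ. The groups overlapped because wild-type replicate 2 was lower than gcn4Δ replicate 2. The log2 change was -0.33 ± 0.14 (SE, limma adjusted p = 0.165), with -0.39 once gcn4Δ replicate 2 was left out and -0.23 once wild-type replicate 1 was. The log2 ratio of SHM1 to SHM2 within an array averaged -1.39 ± 0.21 in the wild type and -1.74 ± 0.15 in gcn4Δ (SD, n = 3 each). The ratios of wild-type replicate 2 and gcn4Δ replicate 2 were nearly equal, at -1.64 and -1.65, so the groups were only just separated. The difference was -0.34 (95% interval -0.76 to 0.08, exact permutation p = 0.1, adjusted over pairs 0.175), with -0.39 when gcn4Δ replicate 2 was left out.

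GLY1 had the largest change of the 10 genes. The threonine aldolase gene read 2829, 1875 and 2921 in wild-type replicates 1, 2 and 3, and 827, 1259 and 871 in gcn4Δ. Every gcn4Δ array was below every wild-type array, although wild-type replicate 2 was low and gcn4Δ replicate 2 high within its group. GLY1 fell from a mean of 2541 ± 579 to 986 ± 238 (SD, n = 3 each). The log2 change was -1.36 ± 0.23 (SE, limma adjusted p = 0.0129). Only 1.49% of all genes had a lower change. Its spread was the widest of the 10 genes in both groups, with an SD of 0.36 in the wild type and 0.33 in gcn4Δ on the log2 scale.

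The size of the GLY1 change did not rest on the array with remaining GCN4 signal: it was -1.55 without gcn4Δ replicate 2 (limma adjusted p = 0.0179) and -1.27 without wild-type replicate 1. The call was lost without gcn4Δ replicate 1, at -1.25 (limma adjusted p = 0.0558), and without gcn4Δ replicate 3, at -1.29 (limma adjusted p = 0.0518). Against the second cytosolic source of glycine, the log2 ratio of SHM2 to GLY1 was higher in every gcn4Δ array than in any wild-type array. It was 1.46, 1.99 and 1.29 in the wild type and 3.22, 2.60 and 3.05 in gcn4Δ. The difference of 1.37 (95% interval 0.59 to 2.16) had an exact permutation p = 0.1, or 0.175 adjusted over the pairs, and was 1.55 with gcn4Δ replicate 2 left out.

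**Figure D3:**
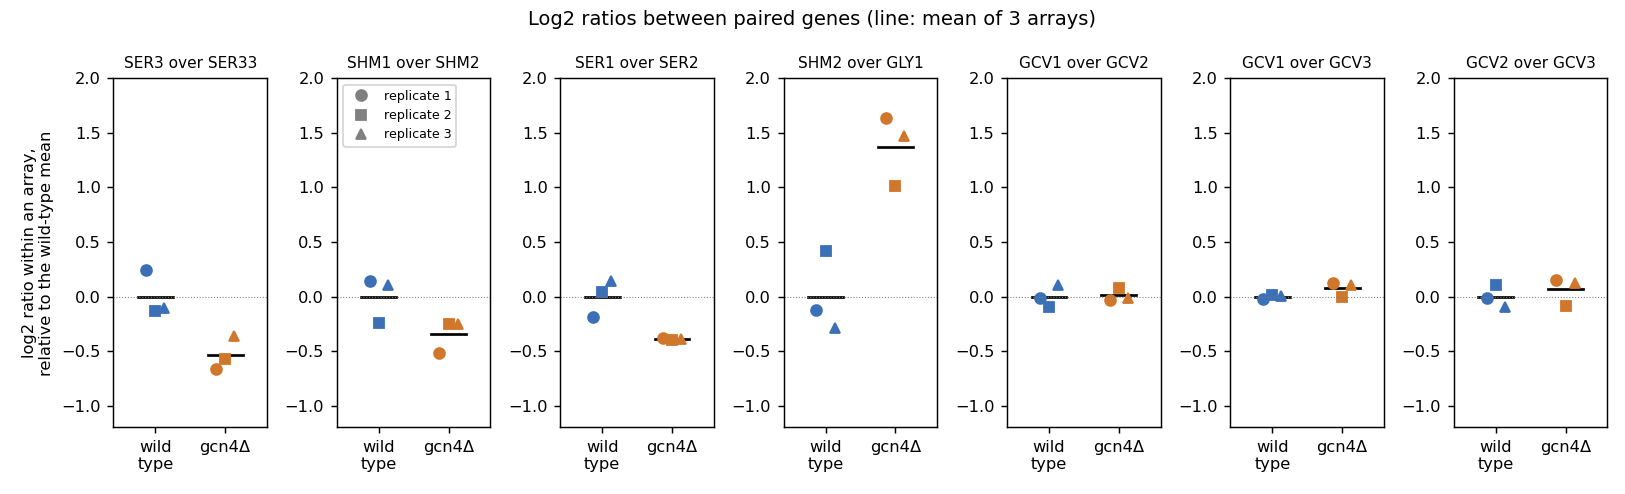
Log2 ratio of 2 genes within each array, relative to the wild-type mean, for the 7 pairs compared; points are arrays shaped by replicate number and lines the means of 3 arrays. The ratios of SER3 to SER33, SER1 to SER2 and SHM2 to GLY1 are separated between the groups, those of SHM1 to SHM2 only just. The mean ratios among GCV genes differ by 0.08 or less.

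The 3 genes particular to the glycine cleavage complex read slightly higher in gcn4Δ, and none passed the test. GCV2, the glycine decarboxylase, read 4745, 4596 and 4097 in the wild type, and 5584, 4937 and 5174 in gcn4Δ. GCV1, the aminomethyltransferase, read 4903, 4487 and 4582 in the wild type, and 5697, 5426 and 5330 in gcn4Δ. For both, all gcn4Δ arrays were above all wild-type arrays, a separation that 21.1% of all genes showed in this direction. GCV3, the lipoyl-bearing carrier protein, read 5525, 4909 and 5044 in the wild type, and 5776, 6025 and 5475 in gcn4Δ. Its groups overlapped, as wild-type replicate 1 was above gcn4Δ replicate 3.

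The log2 changes were 0.22 for GCV2 (limma adjusted p = 0.180), 0.24 for GCV1 (limma adjusted p = 0.115) and 0.16 for GCV3 (limma adjusted p = 0.279). GCV1 passed with trend and robust variances (limma adjusted p = 0.0496), and with array weights both GCV1 and GCV2 passed, at 0.0165 and 0.0329. The changes of the 3 genes were close to each other. Between groups the ratio of GCV1 to GCV2 differed by 0.01 (95% interval -0.17 to 0.19, exact permutation p = 1), that of GCV1 to GCV3 by 0.08 (-0.04 to 0.20, exact p = 0.3) and that of GCV2 to GCV3 by 0.07 (-0.20 to 0.33, exact p = 0.5), all on the log2 scale. The first of these changed sign, to -0.01, with renewed quantile normalization. With gcn4Δ replicate 2 left out the differences were -0.022, 0.12 and 0.14. Without gcn4Δ replicate 2 the GCV2, GCV1 and GCV3 changes were 0.27, 0.24 and 0.13. With wild-type replicate 1 left out instead, they were 0.27, 0.27 and 0.21.

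Other genes around serine and glycine were taken from 7 lists of pathway neighbours, in which 61 of 63 genes were measured. Of these, 18 were lower, with GCN4, the deleted gene, among them, 1 was higher and 42 did not pass. Over all genes 6.0% were called lower and 5.34% higher, the shares to set beside the counts of each list below. The median change of the 61 genes was -0.13 on the log2 scale. TDH2 and ADE57 are not analysed here.

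The threonine branch supplies the substrate of Gly1. In the list of threonine synthesis and other routes around glycine, 6 of 10 genes were lower and 0 higher, with a median of -0.81. At an unadjusted p under 0.05 in limma 6 were lower and 0 higher, against 12.3% and 16.4% of all genes. HOM3, aspartate kinase, fell by 1.62 on the log2 scale. The homoserine kinase gene THR1 and the threonine synthase gene THR4 fell by 0.84 and 0.78. HOM6, of the same route to threonine, was at -0.03 (limma adjusted p = 0.820), so not every gene of the route was lower. The 6 lower genes also include ILV1, at -1.09, and SRY1, which are not steps of threonine synthesis. SRY1, a hydroxyaspartate dehydratase, had the largest fall of the list, at -3.13 (limma adjusted p = 2.41e-05).

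The other glycine source AGX1, an alanine-glyoxylate aminotransferase, read 1325, 2776 and 3244 in the wild type, and 2167, 2082 and 1905 in gcn4Δ. Wild-type replicate 1 was far below the other wild-type arrays. With it the log2 change was -0.16 (limma adjusted p = 0.772). Without it AGX1 passed, at -0.55 (limma adjusted p = 0.0245), and the list then held 8 lower genes. CHA1, the serine and threonine deaminase, read 306, 137 and 126 in the wild type, and 134, 129 and 134 in gcn4Δ. Here too wild-type replicate 1 was the array apart, and the log2 change of -0.40 (limma adjusted p = 0.455) became 0.01 without it.

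Of 14 genes that make folate or carry its one-carbon units, 4 were lower and 1 was higher, with a median of -0.15. A count of 1 higher in 14 is close to the 5.34% of all genes called higher. MET13, a methylenetetrahydrofolate reductase, fell by 1.30 and FOL2, GTP cyclohydrolase of folate synthesis, by 0.83 on the log2 scale. ADE3, the cytosolic trifunctional one-carbon enzyme, fell by 0.59 (limma adjusted p = 0.0142). Its mitochondrial counterpart MIS1 was at 0.14 and the dehydrogenase gene MTD1 at -0.23 (limma adjusted p = 0.552 and 0.270). Single arrays moved both estimates: MIS1 was at 0.0051 when gcn4Δ replicate 3 was left out, and at 0.24 when gcn4Δ replicate 2 was. With wild-type replicate 1 left out MIS1 was at 0.21 and MTD1 at -0.12. CDC21, thymidylate synthase, was the gene that rose, by 0.77 (limma adjusted p = 0.0230).

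The folate calls named here depended on single arrays, except that of FOL2. Leaving out gcn4Δ replicate 1 cut the number of lower genes to 1, and leaving out either gcn4Δ replicate 2 or wild-type replicate 3 cut it to 2. CDC21 was not called without gcn4Δ replicate 1, 2 or 3 or wild-type replicate 3, so 0 genes were higher in those fits. ADE3 was lost without gcn4Δ replicate 1 or 2, and MET13 without either of gcn4Δ replicates 1 and 3 and wild-type replicates 1 and 3. FOL2 was called in each of the 6 omissions.

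**Figure D4:**
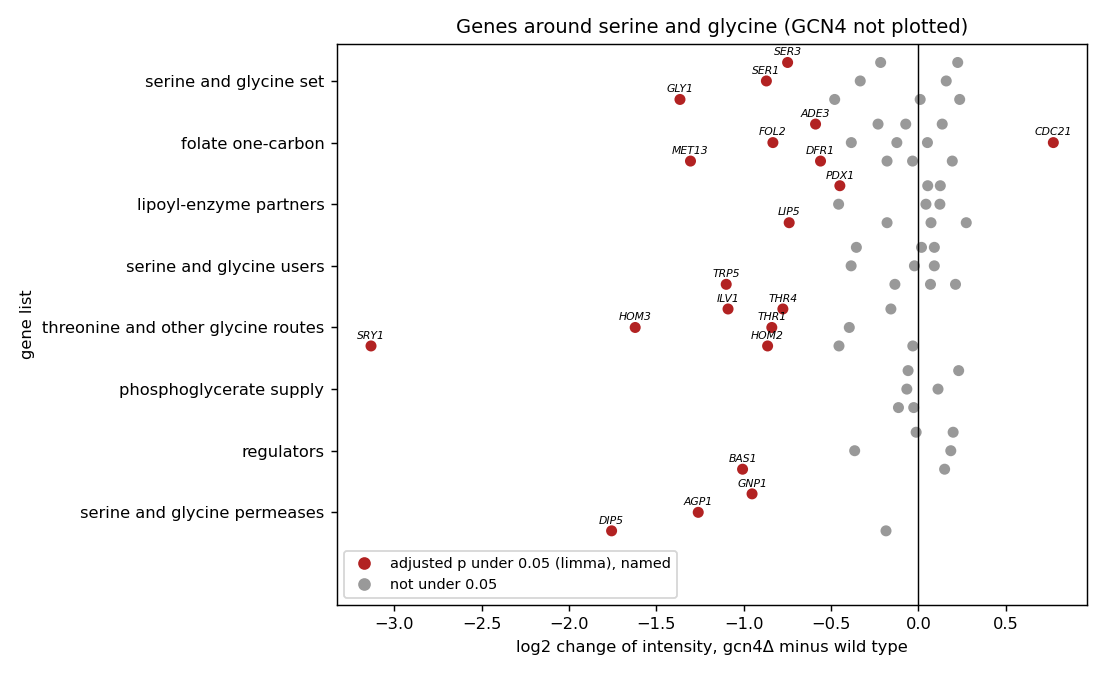
Log2 change of intensity, gcn4Δ minus wild type, for the 10 genes and for the genes of the 7 neighbouring lists, 1 point per gene, with called genes in red and named. The list of threonine and other glycine routes holds 6 called genes, all lower, and the phosphoglycerate list holds 0.

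Among partners of the cleavage complex and of other lipoyl enzymes, 2 of 10 genes were lower and 0 higher. At an unadjusted p under 0.05 in limma 3 were lower and 0 higher, against 12.3% and 16.4% of all genes. LPD1, the subunit shared with the glycine cleavage complex, was at -0.18 (limma adjusted p = 0.303), with -0.27 when wild-type replicate 1 was left out. LIP5, lipoic acid synthase, fell by 0.74 and PDX1, of the pyruvate dehydrogenase complex, by 0.45 on the log2 scale. Leaving out gcn4Δ replicate 1 or 2 brought the count of called lower genes to 0, and leaving out wild-type replicate 2 or 3 brought it to 1. In the list of enzymes that use serine or glycine, 1 of 10 genes was lower and 0 higher (3 and 0 unadjusted in limma). The called gene was TRP5, tryptophan synthase, whose change was -1.10 (limma adjusted p = 0.000416).

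Upstream of serine, 0 of 6 measured glycolytic genes around 3-phosphoglycerate passed in either direction, and 0 at an unadjusted p under 0.05 in limma. GPM2, a phosphoglycerate mutase homologue, had the largest estimate there, at 0.23, or -0.16 without wild-type replicate 1. Of 4 permeases that carry serine or glycine 3 were lower, led by DIP5 at -1.76 and AGP1 at -1.26. The permease count was 2 when gcn4Δ replicate 1, 2 or 3 was left out. Among regulators 2 of 7 were lower, GCN4 itself and BAS1, which went from a mean of 1190 ± 99.9 to 592 ± 35.4 (SD, n = 3 each). Its change was -1.01 on the log2 scale (limma adjusted p = 0.00127). PHO2, the partner of Bas1, was at -0.36 (limma adjusted p = 0.186), with -0.22 when wild-type replicate 1 was left out and -0.51 when wild-type replicate 2 was. With gcn4Δ replicate 2 left out, HOM3, THR1, THR4, SRY1, TRP5, DIP5, AGP1 and BAS1 were each still called lower. SHM2 and the GCV genes, the known targets of this pair named above, did not pass in the main fit. As given above, GCV1 and GCV2 passed as higher with array weights, and GCV1 with trend and robust variances. Activity of Bas1 and Pho2 was not measured, and a link between BAS1 transcript and these genes was not tested.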

How the data were processed

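The authors deposited a table of linear intensity values with 1 value per probe set for each array, and the submitters' processing notes name RMA. Its version and the number of runs are not stated in the labels. RMA evens out shifts common to most genes.

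Log2 was taken with no pseudocount. Of 10928 probe sets, 5498 matched S. cerevisiae genes by gene identifier in the R64 table, whose coordinates are not used. The brightest probe set stood for each of 5449 genes. Background is the 95th percentile of 1746 named probe sets of other genes, per array. The gene test was limma 3.58.1 (R 4.3.3; lmFit and eBayes; gcn4Δ minus wild type without covariates) with Benjamini-Hochberg adjustment over 5498 probe sets. The code was tested on simulated data. Pair ratios were compared by exact permutation over arrays; their intervals use the pooled spread of the 3 arrays a group. Figures used matplotlib 3.10.9 in Python 3.11.15.

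The 10 genes, the lists and the tests were chosen with earlier results of these data known. All 10 genes, GCN4 and 11 list genes are named whatever their values. Of each list, up to 2 called genes per direction are named too or, where none was called, the largest change. HOM6, ILV1, PGK1 and MFA2 are named besides these. A promoter motif search was planned and not run. Alternatives were the replicate block, omission of each array, other normalization, filters, variances, probe set averages and thresholds, and a pseudocount of 16. Replicate numbers gave correlations of same-numbered deviations of -0.34, -0.38 and -0.22, so they were not taken as pairs.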

Additional observations from a re-analysis of the deposited data

How the results depend on the processing

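Of the 10 serine and glycine genes, 2 to 3 were lower in the fits that left out 1 array, and 3 to 4 under other normalization, filter and variance settings. At an adjusted p under 0.01, 2 were lower. At least 2-fold, 1 was lower. The number higher was 0 except with trend and robust variances, where it was 1, and with array weights, where it was 2. The count of all genes changed was 618, but 210 with the replicate block, 341 with all probe sets of the table, 1443 with array weights and 220 to 713 with 1 array left out. With the replicate block 2 of the 10 genes were lower, GLY1 having an adjusted p of 0.0681 in limma. Same-numbered arrays did not deviate together (correlations of -0.34, -0.38 and -0.22), and no sample correlated best with its own number. Of the list genes, 18 were lower in the main fit, 13 with the replicate block and 14 with all probe sets. Array weights gave 21, and omission of 1 array 12 to 20. The number of list genes higher was 0 with the replicate block and with all probe sets, 2 with array weights and 0 to 1 with 1 array left out.

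Signs turned for values near 0: SHM2 was at -0.027 with renewed quantile normalization and between -0.021 and 0.040 with 1 array left out. The change in GCV1 over GCV2 was -0.010 with that normalization and -0.035 to 0.063 with 1 array left out. Estimates further from 0 also turned in these omissions. CHA1, at -0.40 with all arrays, ranged from -0.63 to 0.011, AGX1, at -0.16, from -0.55 to 0.10 and GPM2, at 0.23, from -0.16 to 0.45. CHA1 and GPM2 turned without wild-type replicate 1, and AGX1 without wild-type replicate 3. The causes were not tested.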

Other observations

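MET13 was compared with GLY1 after its values were seen. MET13 read 3037, 1791 and 3170 in wild-type replicates 1, 2 and 3, and 817, 1407 and 996 in gcn4Δ. As for GLY1, wild-type replicate 2 was the lowest wild-type array and gcn4Δ replicate 2 the highest gcn4Δ array. SHM1, GCV3 and PHO2 showed this order too, as did PGK1, of the phosphoglycerate list, and MFA2, a marker of mating type a. The share of all genes with this order was not counted, so it is not shown to be particular to these genes. Omission of wild-type replicate 2 gave log2 changes of -1.57 for both GLY1 and MET13.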
